A study of Mus musculus with 6 samples.

Results

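SOXC factors (SOX4, SOX11 and SOX12) and SOXD factors (SOX5, SOX6 and SOX13) are DNA-binding proteins of the SOX family. SOXC proteins carry a transactivation domain, and SOX4 and SOX11 are known for driving the neuronal program once neural progenitors commit. SOXD proteins carry no known transactivation or repression domain of their own, bind as dimers through a coiled coil, and act with partners. SOX5 and SOX6 are known for delaying oligodendrocyte differentiation in the neural lineage and for acting with SOX9 in cartilage, and SOX13 is known from gamma delta T cells. The accessible chromatin around these 6 genes was described here as adult neural stem cells left proliferation.

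Each gene was given a window of its gene body plus 50 kb on either side (GENCODE M21, GRCm38), and every ATAC-seq peak overlapping a window was taken. ATAC-seq tags DNA that a transposase can reach, and a peak is a stretch where tagged fragments pile up above the local background. Peaks of any library that overlapped by at least 1 bp were merged into regions. The 6 windows held 119 of 119719 regions (0.0994%), 30 in the 3 SOXC windows and 89 in the 3 SOXD windows, which are longer in total (1864 kb against 318 kb).

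The libraries came from neural stem cell cultures of the subependymal zone (SEZ) of *Srr2* del/del mice on a C57BL/6J background, 10 weeks old. *Srr2* is an enhancer downstream of *Sox2*, and its CRISPR-Cas9 deletion was carried by both groups, so the comparison lay within the mutant; wild-type libraries were not analysed here. The study describes 2 founder strains of the deletion, and the labels do not give the strain of a library. PROLIF cultures (n = 3, replicates 1, 2 and 4) had 2 days in vitro with mitogen on Matrigel, and DIFF cultures (n = 3, the same numbers) had 1 further day in serum without mitogens. The series text instead describes the proliferating cells as neurospheres at 3 days in vitro, and the sample labels were followed. The lists held 60006 to 88039 peaks, with a background pileup of 2.85 to 6.01 reads, highest in DIFF replicate 4. In a bulk culture, a change in the share of cells and a change in accessibility per cell cannot be told apart.

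Strength was compared by the percentile of a peak within its own library's list, ranked by −log10 p, where 100 is the strongest peak. A percentile does not carry the number of reads from one library to another. A region without a peak is one that did not pass the caller, which is not the same as closed chromatin.

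The sequences of 8 elements on which the results turn are shown here, read 5′ to 3′. Capitals mark matches, on either strand, to short motif words. Regions are shown, and were searched, within 100 bp of the summit, and the *Sox11* promoter over the 250 bases printed. The words were SOX (ACAAAG or ACAATG), AP-1 (TGACTCA or TGAGTCA), 2 E-boxes (CAGATG and CAGCTG), an NFI word (TTGGCA) and TEAD (ACATTCCA). The regions are given on the plus strand of GRCm38, the *Sox11* promoter on the minus strand from RefSeq.
*Sox11* promoter, 250 bases before the RefSeq start, chr12:27342719-27342968, ranked higher in DIFF: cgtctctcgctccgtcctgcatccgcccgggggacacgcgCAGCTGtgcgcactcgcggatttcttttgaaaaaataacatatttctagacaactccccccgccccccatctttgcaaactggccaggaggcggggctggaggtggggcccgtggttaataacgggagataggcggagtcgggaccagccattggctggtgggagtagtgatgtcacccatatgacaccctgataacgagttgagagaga
Region downstream of *Sox11*, chr12:27294301-27294501, a peak in DIFF libraries alone: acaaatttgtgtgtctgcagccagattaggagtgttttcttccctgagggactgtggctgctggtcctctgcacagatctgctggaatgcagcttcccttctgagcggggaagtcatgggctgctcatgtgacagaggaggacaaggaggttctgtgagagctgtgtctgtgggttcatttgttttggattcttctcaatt
Element upstream of *Sox12*, chr2:152406182-152406382, the strongest distal region of the SOXC windows: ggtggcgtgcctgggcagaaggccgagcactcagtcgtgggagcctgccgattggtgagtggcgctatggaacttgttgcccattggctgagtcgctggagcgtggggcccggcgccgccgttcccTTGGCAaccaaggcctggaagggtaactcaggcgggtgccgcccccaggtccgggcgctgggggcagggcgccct
Intronic element of *Sox5*, chr6:144056828-144057028, the strongest distal region of the SOXD windows: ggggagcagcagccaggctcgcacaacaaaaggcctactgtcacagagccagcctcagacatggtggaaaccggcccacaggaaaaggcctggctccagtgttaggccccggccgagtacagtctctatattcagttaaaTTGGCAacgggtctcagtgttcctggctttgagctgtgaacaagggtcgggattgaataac
Intronic region of *Sox5*, chr6:144609877-144610077, a peak in PROLIF libraries alone: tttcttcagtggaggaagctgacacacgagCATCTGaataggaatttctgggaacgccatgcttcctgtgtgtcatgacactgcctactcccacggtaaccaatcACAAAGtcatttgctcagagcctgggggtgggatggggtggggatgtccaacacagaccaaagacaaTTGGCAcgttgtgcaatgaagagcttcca
Intronic region of *Sox5*, chr6:143958838-143959038, a peak in DIFF libraries alone: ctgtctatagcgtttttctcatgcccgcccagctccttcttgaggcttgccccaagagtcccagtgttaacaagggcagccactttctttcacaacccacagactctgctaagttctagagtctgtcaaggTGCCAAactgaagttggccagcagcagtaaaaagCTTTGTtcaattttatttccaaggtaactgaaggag
Intronic region of *Sox6*, chr7:115686017-115686217, a peak in DIFF libraries alone: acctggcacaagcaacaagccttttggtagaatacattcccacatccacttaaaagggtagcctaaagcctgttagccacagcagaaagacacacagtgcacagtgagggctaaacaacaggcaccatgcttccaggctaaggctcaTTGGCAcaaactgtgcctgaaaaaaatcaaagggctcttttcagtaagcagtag
Element upstream of *Sox13*, chr1:133434516-133434716, ranked higher in DIFF: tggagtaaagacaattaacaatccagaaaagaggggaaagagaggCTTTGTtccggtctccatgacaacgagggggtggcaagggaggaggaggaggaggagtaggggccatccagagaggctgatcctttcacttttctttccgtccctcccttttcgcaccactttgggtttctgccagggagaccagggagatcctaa
The *Sox11* promoter stretch held a CAGCTG word, which 13.0% of 32851 RefSeq promoter stretches of that length held, and no word lay within 100 bp of the summit of the *Sox11* promoter region. The element upstream of *Sox12* and the strong *Sox5* element each held an NFI word, found in 18.3% of all regions. The PROLIF-only region of *Sox5* shown, 1 of 3, held a SOX word, a CAGATG word and an NFI word. The others held an AP-1 word (chr6:144513829-144514095) and a SOX word (chr6:144560204-144560521). The DIFF-only region of *Sox5* held a SOX word and an NFI word, and the *Sox13* element a SOX word. Over all PROLIF-only regions the shares were 37.8% for SOX, 28.4% for CAGATG, 27.8% for AP-1 and 19.2% for NFI. Over all DIFF-only regions they were 30.1% for SOX and 32.8% for NFI. A match is a description of the letters and was not tested as a binding site.

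All 6 genes were open at a start site in both states. Each had a promoter peak (within 3 kb of one of its start sites) in all 6 libraries, as did 64.4% of protein-coding genes. Of 13 other SOX genes, 8 had one in all 6 libraries (*Sox1*, *Sox2*, *Sox3*, *Sox21*, *Sox8*, *Sox9*, *Sox17* and *Sox30*). *Sox10* had none in any library, and 4 genes had one in 1 to 5 libraries.

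**Figure D1:**
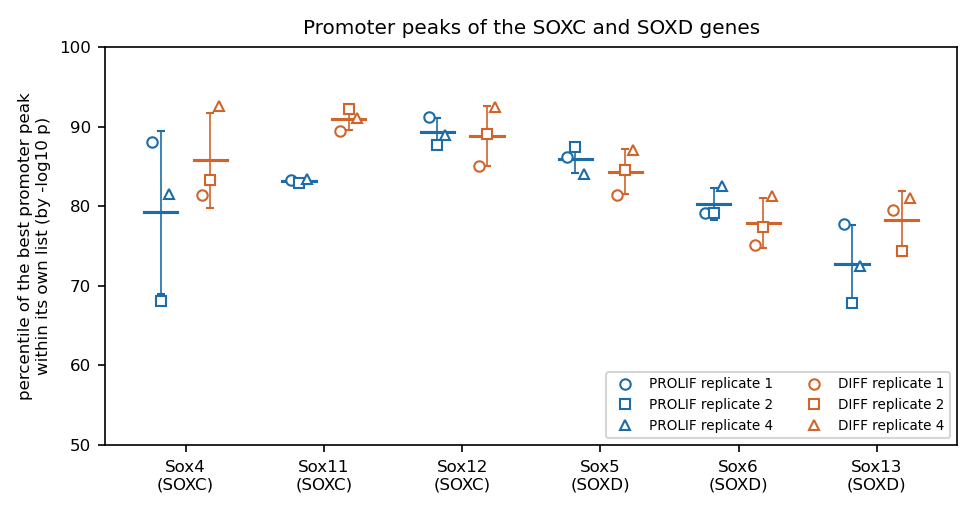
Percentile of the best promoter peak (vertical axis, within each library's own list, axis from 50 to 100) for the 6 genes. Points are libraries (n = 3 per state), bars the mean and SD. The *Sox11* points of DIFF lie between 89.5 and 92.2, above those of PROLIF at 82.9 to 83.4, and the states overlap for the other 5 genes.

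*Sox11* (ENSMUSG00000063632.6, chr12:27334264-27342574, minus strand), a SOXC gene of a single exon, was the one member whose promoter percentiles did not overlap between the states. They were 83.3, 82.9 and 83.4 in PROLIF replicates 1, 2 and 4 and 89.5, 92.2 and 91.1 in DIFF. Every DIFF library thus ranked this promoter above every PROLIF library. The means were 83.2 ± 0.271 in PROLIF and 90.9 ± 1.35 in DIFF (SD, n = 3 each), a difference of 7.74 points (two-sided exact permutation test, p = 0.1, the smallest p that 3 against 3 allows). Among 14126 genes so open in all 6 libraries, such a rise was found for 26% and a fall for 4.79%, so the *Sox11* pattern was a common one. It remained when peaks were ranked within each list by fold enrichment over the local background (68.3, 63.8 and 69.2 against 77.6, 76.6 and 80.8). The fold values themselves overlapped, at 8.17, 7.01 and 7.36 in PROLIF and 8.14, 9.56 and 8.47 in DIFF. The share of peaks on chromosome 12 was 4.32%, 4.94% and 4.39% of the PROLIF lists and 4.31%, 4.84% and 4.32% of the DIFF lists, and its part in the result was not tested.
*Sox4* (ENSMUSG00000076431.4, chr13:28948919-28953713, minus strand) has a single annotated start. Its promoter ranked at 88.1, 68.0 and 81.5 in PROLIF and 81.5, 83.3 and 92.6 in DIFF, which overlap (exact permutation p = 0.5). *Sox12* (ENSMUSG00000051817.8, chr2:152393611-152398063, minus strand) ranked at 91.1, 87.7 and 89.0 in PROLIF and 85.0, 89.0 and 92.4 in DIFF (exact permutation p = 1). Neither gene showed a difference larger than the spread between libraries. In order of the mean over PROLIF libraries, *Sox12* (89.3), *Sox5* (85.9), *Sox11* (83.2), *Sox6* (80.3) and *Sox4* (79.2) came before *Sox13* (72.7), and of neighbours in that order the PROLIF values of *Sox6* and *Sox4*, and of *Sox4* and *Sox13*, overlapped.
For the SOXD genes the promoter percentiles were 86.2, 87.4 and 84.1 in PROLIF and 81.4, 84.5 and 87.1 in DIFF at *Sox5* (exact permutation p = 0.6). *Sox13* (ENSMUSG00000070643.11, chr1:133382303-133424377, minus strand) ranked at 77.8, 67.9 and 72.5 in PROLIF and 79.6, 74.3 and 81.1 in DIFF (exact permutation p = 0.2). Both genes thus overlapped between the states. *Sox6* was open at more than one start, and its best start was another one in each state, as described with the gene.
Promoter percentiles over the 6 libraries were also set against those of other SOX genes by Euclidean distance. The 13 candidates for each gene had a promoter peak in all 6 libraries and included the other members. The nearest was *Sox9* for *Sox11*, *Sox12* and *Sox5*, at 7.88, 8.50 and 7.11 points. It was *Sox3* for *Sox4*, *Sox6* and *Sox13*, at 15.7, 13.5 and 13.6 points.

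The number of peaks around the genes did not separate the states. The 6 windows together held 97, 83 and 76 peaks in PROLIF and 89, 80 and 98 in DIFF. The means were 85.3 ± 10.7 and 89 ± 9 (SD, n = 3 each, two-sided exact permutation p = 0.7). The length covered was 45.7, 35.7 and 32.7 kb in PROLIF and 36.5, 38.4 and 42.8 kb in DIFF (exact permutation p = 0.8). The number per 10000 peaks of the list was 11.8, 12.5 and 12.7 against 12.5, 11.3 and 11.2, where the sign of the difference turned (exact permutation p = 0.3).

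**Figure D2:**
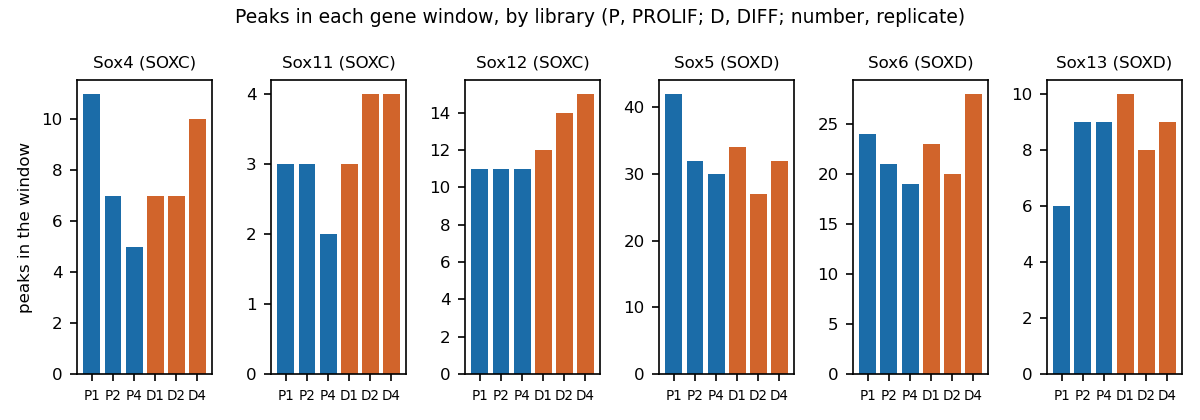
Peaks in each gene window by library (bars from 0, vertical scales differ between genes). PROLIF libraries are P1, P2 and P4, and DIFF libraries D1, D2 and D4. *Sox12* has 11 peaks in every PROLIF library and 12 to 15 in DIFF, and *Sox5* has 27 to 42 over all 6.

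By gene, the *Sox12* window was the one whose counts did not overlap, with 11 peaks in each PROLIF library and 12, 14 and 15 in DIFF (exact permutation p = 0.1). Among protein-coding gene windows, 8.43% had more peaks in every DIFF library and 1.62% more in every PROLIF library. Per 10000 peaks of the list, *Sox12* overlapped (1.33, 1.66 and 1.84 against 1.69, 1.98 and 1.71), while with lists cut to equal length the difference was 1.67 peaks (exact permutation p = 0.1). Among the strongest 20000 peaks of each list it was −2 peaks (exact permutation p = 0.1), so the sign turned when the weaker peaks were left out.
*Sox5* had 42, 32 and 30 peaks in PROLIF and 34, 27 and 32 in DIFF. Per 10000 peaks these were 5.09, 4.82 and 5.02 in PROLIF and 4.78, 3.83 and 3.65 in DIFF, without overlap (exact permutation p = 0.1), a pattern that 9.64% of windows shared, with 9.45% in the opposite direction. The longest list, DIFF replicate 4, gave the lowest of these values. *Sox4* had 11, 7 and 5 peaks in PROLIF and 7, 7 and 10 in DIFF, and *Sox11* 3, 3 and 2 against 3, 4 and 4. *Sox6* had 24, 21 and 19 against 23, 20 and 28, and *Sox13* 6, 9 and 9 against 10, 8 and 9. These 4 windows overlapped between the states on either scale.

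Of the 119 regions, 51 (42.9%) had a peak in all 6 libraries, 17 had one in a single library and 51 in 2 to 5 libraries. Over all regions of the series the share in all 6 libraries was 33.5%. It was 16 of 30 in the SOXC windows (53.3%) and 35 of 89 in the SOXD windows (39.3%), and by gene 10 of 14 for *Sox12*, 6 of 10 for *Sox13*, 2 of 5 for *Sox11*, 12 of 32 for *Sox6*, 4 of 11 for *Sox4* and 17 of 47 for *Sox5*. Over 3 kb from any start site, 36 of 88 regions (40.9%) were in all 6 libraries, against 25.3% of all distal regions. Within 3 kb it was 15 of 31 (48.4%), against 52.6%. A region had a peak in more DIFF than PROLIF libraries in 30 cases, in more PROLIF libraries in 28, and in equal numbers in 61.

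**Figure D3:**
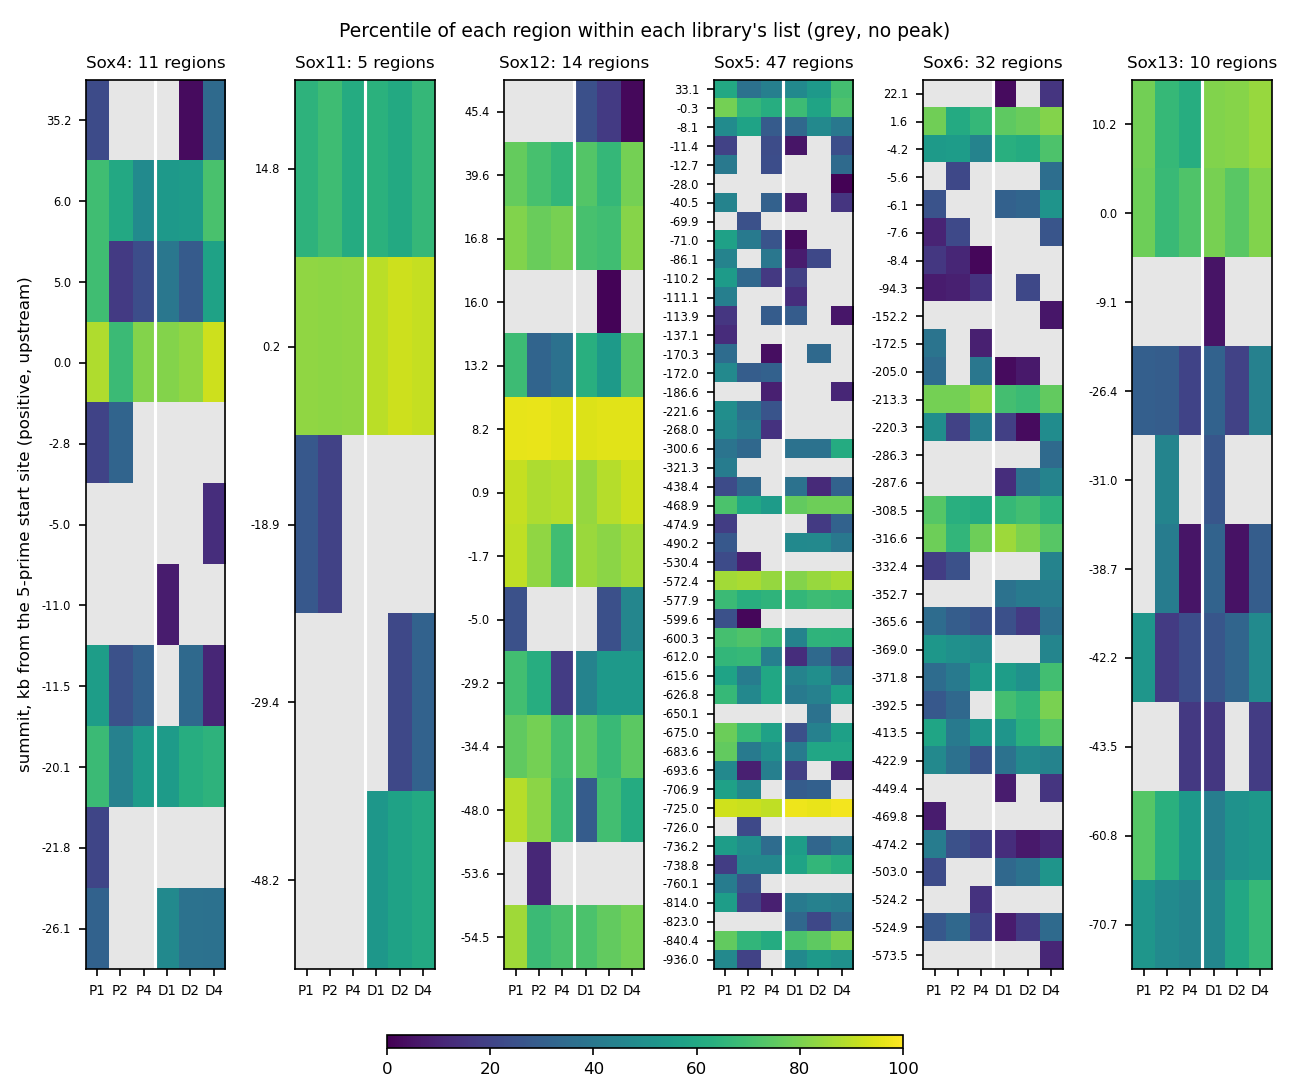
Percentile of every region in every library, 1 panel per gene, with regions in order of the distance of their summit from the 5′-most start site (kb, positive upstream). PROLIF libraries are left of the white line and DIFF libraries right of it, and grey is no peak. The element 8.2 kb upstream of *Sox12* and the one 725.0 kb into *Sox5* are the brightest rows.

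State-only regions, found in each of 3 libraries of a state and in no library of the opposite one, were few. There were 4 PROLIF-only regions (3.36%; 3 in *Sox5* and 1 in *Sox6*) and 5 DIFF-only regions (4.20%; 2 in *Sox6* and 1 each in *Sox5*, *Sox11* and *Sox12*). Over the series 1.79% of regions were PROLIF-only and 3.48% DIFF-only, and with so few regions neither count is read as particular to these genes. The PROLIF-only count was 9 with PROLIF replicate 4 left out, and the DIFF-only count was 9 with PROLIF replicate 1 left out.
Of the 51 shared regions, 6 ranked higher in every DIFF library and 6 in every PROLIF library. Over all 40102 shared regions these shares were 21.1% and 11.7%. By fold enrichment, 5 of each 6 kept the same call, against 75.1% and 81.3% of such calls over the series. The 6 higher in DIFF became 18 without PROLIF replicate 1, and the 6 higher in PROLIF became 11 without PROLIF replicate 4 or without DIFF replicate 4.

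Around *Sox11*, whose window holds no other annotated gene, 5 regions were found. The DIFF-only region (chr12:27294290-27294679) lay 48.2 kb downstream of the start and ranked at 52.7, 57.5 and 60.6, the highest of the state-only regions. Its pileups were 24, 27 and 38 reads, and no PROLIF library had a peak there. A weaker region 29.4 kb downstream had peaks in DIFF replicates 2 and 4 (21.8 and 31.4), and another 18.9 kb downstream in PROLIF replicates 1 and 2 (27.5 and 19.8). The strongest distal region (chr12:27356888-27357763), 14.8 kb upstream, was shared and ranked at 64.5, 68.9 and 61.5 in PROLIF and 64.0, 60.8 and 66.7 in DIFF. So the promoter ranked higher in DIFF and the region 48.2 kb downstream passed the caller in DIFF alone. The upstream region overlapped, and the weaker downstream regions were divided between the states.
Around *Sox4*, 11 regions included no state-only region and none with separate ranks. The strongest distal region (chr13:28959415-28959899), 5.98 kb upstream, ranked at 69.3, 60.4 and 47.7 in PROLIF and 53.7, 54.9 and 71.2 in DIFF. A second one 20.1 kb downstream (chr13:28933346-28933830) ranked at 68.3, 44.0 and 55.0 against 54.9, 62.3 and 64.8. Values in both states overlapped, with PROLIF replicate 1 and DIFF replicate 4, the longest lists, at the top.
The *Sox12* window was the densest, with 14 regions or 13.4 per 100 kb, against a median of 6.35 over protein-coding genes. It also holds 4 other protein-coding genes, *Trib3*, *Nrsn2*, *Zcchc3* and *6820408C15Rik*, and 4 regions lay nearest to a start of another gene within 3 kb. The element 8.22 kb upstream of *Sox12* (chr2:152405867-152406709), outside any annotated gene, ranked at 96.4, 96.7 and 95.6 in PROLIF and 94.9, 95.6 and 95.6 in DIFF. It stood above the *Sox12* promoter in every library and overlapped between the states. The DIFF-only region (chr2:152443425-152443585), in an intron of *6820408C15Rik*, ranked at 24.3, 16.9 and 2.31 with pileups of 14 to 16 reads, close to the bottom of the list in DIFF replicate 4.

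*Sox5* (ENSMUSG00000041540.16, chr6:143828425-144781977, minus strand) spans 954 kb and held 47 regions. The gene has several annotated groups of start sites, and a short SOX5 form without the coiled coil is known from testis. The 5′-most group (144781919 to 144781977) had a peak in all 6 libraries at percentiles of 58.4 to 79.0. The group at 144209452 to 144209568, 572 kb further on, was the strongest start at 81.4 to 87.4, and the nearby group at 144204057 to 144204427 ranked at 63.0 to 68.6. The 3′-most group, at 143947088 to 143947106 with 4 transcripts, had no peak within 3 kb in any library.

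**Figure D4:**
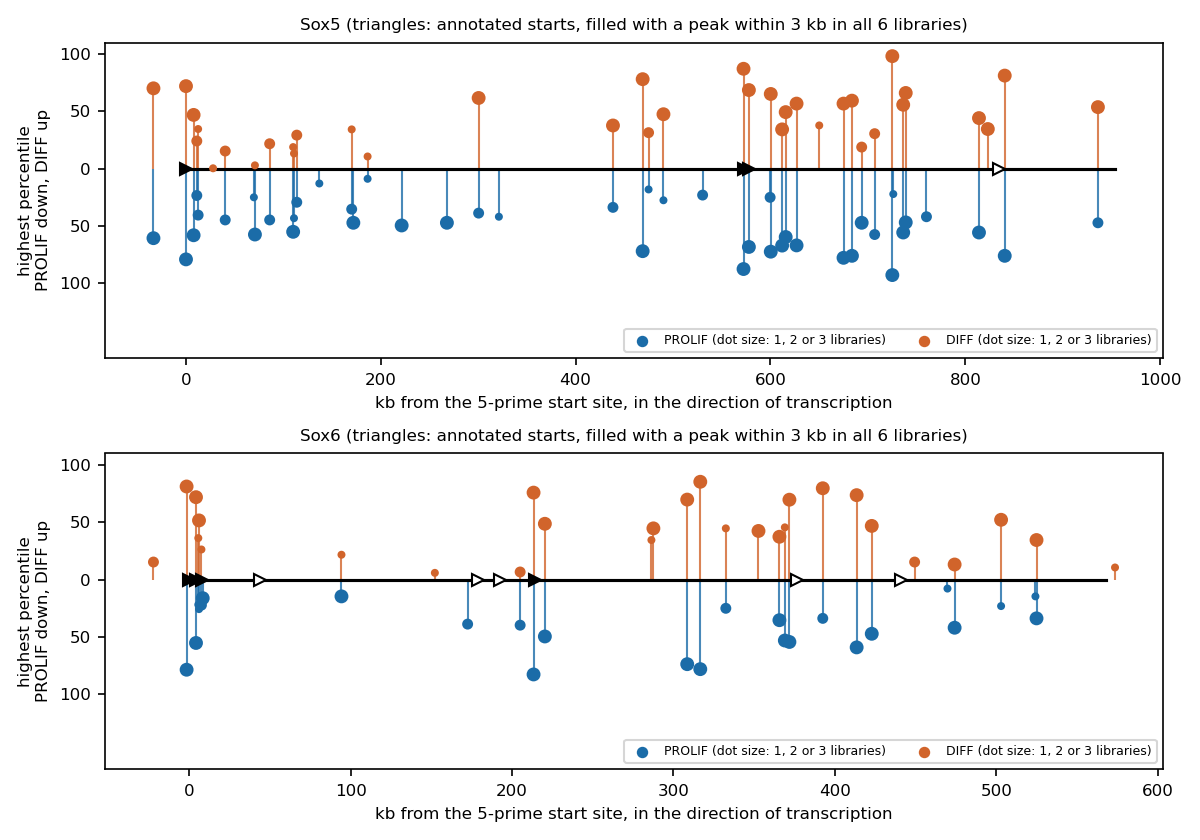
Regions of *Sox5* and *Sox6* by distance from the 5′-most start (kb, in the direction of transcription). Height is the highest percentile in DIFF (up) and PROLIF (down), dot size the number of libraries with a peak, and triangles annotated start groups. The *Sox5* element at 725.0 kb stands highest in both states, at 98.1 in DIFF and 92.7 in PROLIF.

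The strongest distal region of the SOXD windows lay in an intron of *Sox5*, 725.0 kb downstream of the 5′ start (chr6:144056177-144057639). It ranked at 92.7, 92.1 and 90.3 in PROLIF and at 97.4, 96.8 and 98.1 in DIFF. By p, the element upstream of *Sox12* ranked above it in every PROLIF library and below it in every DIFF library. By fold enrichment the *Sox12* element also stood above it in DIFF replicate 2 (15.4 against 14.5). Pileups at the *Sox5* element were 107, 85 and 67 reads in PROLIF and 142, 154 and 249 in DIFF. Ranks were higher in every DIFF library by p, but by fold enrichment they overlapped (95.0, 94.9 and 92.7 against 97.2, 94.1 and 97.9).
A second intronic region nearby (chr6:144042987-144043428) ranked at 18.0, 46.8 and 46.7 in PROLIF and 58.2, 66.0 and 62.7 in DIFF, and it stayed separate by fold enrichment. Another region (chr6:144312820-144313498) ranked at 71.8, 59.8 and 55.0 against 76.1, 78.0 and 77.9. The opposite was seen at 3 intronic regions between the second start group and the strong element. The widest gap was at chr6:144169858-144170332, with 66.2, 67.0 and 43.4 in PROLIF and 13.3, 34.3 and 19.9 in DIFF. The other two were chr6:144106753-144107797 (77.6, 67.5 and 57.4 against 24.3, 44.1 and 56.8) and chr6:144181066-144181825 (70.6, 72.3 and 68.3 against 44.5, 65.2 and 64.8). Regions that ranked higher in PROLIF and in DIFF thus lay within the same gene.
All 3 PROLIF-only regions of *Sox5* were in introns between its 5′ start and the second start group. They ranked at 47.1, 40.9 and 14.5 (chr6:144513829-144514095), at 49.4, 37.4 and 25.9 (chr6:144560204-144560521) and at 47.1, 29.6 and 31.0 (chr6:144609784-144610035). Pileups were 13 to 23 reads, which are weak peaks. The DIFF-only region (chr6:143958715-143959054), 11.6 kb upstream of the 3′-most start group, ranked at 33.7, 21.8 and 34.6.
Divided at the second start group, a division chosen after the values were seen, the 5′ segment held 27 regions, of which 5 were in all 6 libraries and 11 had a peak in more PROLIF than DIFF libraries, with 5 the other way. The 3′ segment held 20 regions, of which 12 were in all 6 libraries, with 4 and 3 on either side. Regions with a peak in the 5′ segment numbered 24, 14 and 17 in PROLIF and 15, 11 and 15 in DIFF, so the states overlapped, and PROLIF replicate 1 stood apart. In the 3′ segment they numbered 17, 18 and 13 against 16, 16 and 15.

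*Sox6* (ENSMUSG00000051910.13, chr7:115470872-116038796, minus strand) spans 568 kb and held 32 regions. Its start sites did not move together. The internal start at 115824710, 213 kb into the gene (region chr7:115824454-115825906), ranked at 79.1, 79.1 and 82.5 in PROLIF and at 70.2, 68.1 and 75.9 in DIFF. PROLIF was higher in every library, by p and by fold enrichment. The region over the starts at 116033602 to 116034513 (chr7:116033524-116034784) had the opposite order, with 54.5, 55.1 and 44.7 in PROLIF and 63.0, 61.7 and 71.9 in DIFF. Ranked by fold enrichment it stayed separate, though narrowly (36.7 in PROLIF replicate 1, 39.2 in DIFF replicate 1). Its fold values overlapped (4.65, 4.39 and 3.89 in PROLIF, 4.21, 4.91 and 4.66 in DIFF). The region next to the 5′-most start (chr7:116039647-116040708) overlapped, at 78.4, 61.1 and 66.7 in PROLIF and 75.1, 77.3 and 81.3 in DIFF, and it lies on the start of the neighbouring gene *1110004F10Rik*. The best *Sox6* promoter peak was therefore the internal start in each PROLIF library and this 5′ region in each DIFF library, which overlapped in rank (exact permutation p = 0.4). Another 5 start groups had no peak within 3 kb in any library.
The strongest distal region of *Sox6* (chr7:115721340-115722578), intronic, ranked at 77.9, 65.9 and 77.8 in PROLIF and 85.4, 80.5 and 74.1 in DIFF, which overlap. The DIFF-only regions were also intronic, at 37.7, 41.1 and 42.5 (chr7:115685995-115686247) and at 13.3, 37.7 and 44.8 (chr7:115750503-115751334). The PROLIF-only region (chr7:116030169-116030585), 462 bp from a start site, was weak, at 16.1, 10.9 and 1.87. Among regions that missed the state-only call, an intronic one (chr7:115645398-115646645), named after its values were seen, ranked at 27.5 and 33.7 in PROLIF replicates 1 and 2, had no peak in replicate 4, and ranked at 70.1, 66.2 and 79.7 in DIFF. An intronic region 474 kb into the gene (chr7:115564410-115564938) ranked higher in PROLIF (41.8, 24.9 and 20.3 against 13.3, 6.75 and 10.7).

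*Sox13* held 10 regions and no state-only region. The element 10.2 kb upstream (chr1:133434147-133435151) ranked at 78.8, 66.9 and 62.4 in PROLIF and 81.1, 82.0 and 84.4 in DIFF. Ranked by fold enrichment the states stayed separate, though narrowly (81.7 in PROLIF replicate 1, 82.2 in DIFF replicate 1). The fold values themselves overlapped (11.1, 7.40 and 7.01 in PROLIF, 9.03, 11.2 and 10.5 in DIFF). The element ranked above the *Sox13* promoter in every DIFF library and in PROLIF replicate 1 (78.8 against 77.8). A region over a start site of the neighbouring *Etnk2*, with its summit in the UTR, ranked the other way. It lay 60.8 kb downstream of the *Sox13* 5′ start. Its percentiles were 73.8, 63.4 and 54.0 against 42.8, 50.8 and 53.0, and they overlapped by fold enrichment. The share of peaks on chromosome 1 varied from 8.66% to 10.6% between lists, and its part was not tested.

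Base composition and motif words were described without a test. Median GC content was 57.7% at 18 regions on the genes' own start sites, against 55.7% at all regions near start sites. Over 3 kb from start sites it was 50% in 88 regions, against 48.8%, and by gene from 46.8% for *Sox6* (25 regions) to 57.0% for *Sox12* (8 regions) and 57.2% for *Sox13* (5 regions). A SOX word was found in 45 of 119 regions (37.8%), against 29.1% of all regions. It was in 38 of 89 SOXD regions (42.7%) and 7 of 30 SOXC regions (23.3%), and in none of the 5 *Sox11* regions. AP-1 words were in 9 of 119 (7.56%), against 5.76%. TEAD words were in 2 of 119 (1.68%), against 1.54%. NFI words were in 18 of 119 (15.1%), against 18.3%. CAGATG was in 23 of 119 (19.3%), against 17.3%, and CAGCTG in 21 of 119 (17.6%), against 19.6%.

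Genes linked to these factors were read at their promoters in the same lists. Over protein-coding genes, 64.4% had a promoter peak in all 6 libraries. Of these 14126 genes, 26% ranked higher in every DIFF library and 4.79% in every PROLIF library. Of 4 genes linked to SOXC, 3 had a promoter peak in all 6 libraries. *Tubb3*, the neuronal tubulin, ranked at 60.1, 42.2 and 53.7 in PROLIF and 64.7, 62.7 and 75.6 in DIFF, without overlap. *Map2*, a dendritic protein, ranked at 98.8, 97.0 and 96.9 in PROLIF and 95.7, 96.4 and 97.9 in DIFF. *Tead2* ranked at 84.2, 80.6 and 70.5 against 79.4, 68.4 and 77.7. Both overlapped between the states, and *Dcx* of neuroblasts had no promoter peak in any library.
Of 7 genes linked to SOXD, 5 had a promoter peak in all 6 libraries. *Col2a1*, the cartilage collagen that SOX5 and SOX6 activate with SOX9, ranked at 45.8, 31.2 and 24.1 in PROLIF and 59.5, 64.7 and 69.0 in DIFF, and *Hdac1*, a histone deacetylase and SOXD partner, at 87.5, 86.7 and 88.0 against 94.3, 92.3 and 91.9. Both were separate between the states. *Ctbp2*, *Ccnd1* and *Pdgfra* overlapped, and the cartilage genes *Acan* and *Matn1* had a promoter peak in 4 and 2 libraries.
Markers of cells were read in the same way, beside the 64.4% of protein-coding genes with a promoter peak in all 6 libraries. All 7 neural stem cell markers had a promoter peak in all 6 libraries, 4 of 5 oligodendrocyte lineage markers and 2 of 3 neuroblast markers. Of 4 microglial markers 2 did, and of 4 endothelial markers none did.
Among the stem cell markers, *Nes* ranked higher in PROLIF (86.6, 74.5 and 72.9 against 53.8, 66.8 and 62.0). *Gfap* ranked higher in DIFF (71.4, 71.2 and 67.1 against 85.1, 90.4 and 90.3), and *Sox9* also, by a small margin (84.9, 85.8 and 86.8 against 86.9, 87.3 and 88.2). The other stem cell markers overlapped. In the oligodendrocyte lineage *Olig1* ranked higher in DIFF (82.2, 78.2 and 80.5 against 86.0, 82.8 and 84.2), and among neuroblast markers *Dlx2* did (62.3, 62.2 and 53.9 against 67.3, 64.5 and 80.6), as did *Tubb3*. Such a rise was found for 26% of genes with a promoter peak in all 6 libraries, and a fall for 4.79%.
The microglial markers did not move together. *P2ry12* ranked at 78.1, 69.7 and 75.7 in PROLIF and 56.9, 57.5 and 56.8 in DIFF, without overlap, whereas *Csf1r* ranked at 52.8, 32.2 and 17.4 against 51.7, 56.8 and 40.1. *Aif1* had peaks in PROLIF replicates 1 and 4 (27.5 and 8.77) and in each DIFF library (13.3, 46.9 and 34.6), and *Cx3cr1* had none. Of the endothelial markers, *Pecam1* had peaks in the 3 PROLIF libraries alone (51.6, 44.0 and 55.0), and *Cdh5*, *Cldn5* and *Tek* had none. The part of these markers in the regions that ranked higher in either state was not tested.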

How the data were processed

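Peak lists of 6 ATAC-seq libraries were used. Per the labels and the study's methods, the authors clipped adapters (Cutadapt), trimmed reads (Trimmomatic), mapped pairs to GRCm38 (Bowtie2), marked duplicates (Picard) and ran MACS2 on every library separately, in its narrow mode with no model and an FDR of 0.05. Versions, read extension, transposase shift and blacklist are not given in the sources used here, and each can move peak edges. The deposited fold enrichment is a ratio to the local background, the −log10 p and −log10 q deposited by the authors use the same background, and the deposited score follows the q.

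Peaks on assembled chromosomes were used (150 to 311 left out per list). Pileup and background were solved from fold and p, whole within 0.02 reads for at least 99.99% of solved peaks, and read totals were not used. The background is percentile 1 of a list's local backgrounds, in reads. Deeper libraries can call weaker peaks, and the part of depth in these lists was not tested. States were compared by two-sided exact permutation. P-values measure only the spread between these libraries. Named regions were each gene's best promoter region, strongest distal region, state-only regions and widest-gap shared regions. Members and lists were chosen with earlier results of these data known. Scripts were tested on simulated lists. Software was scipy 1.17.1, numpy 2.4.6, pysam 0.24.0, pandas 2.3.3, matplotlib 3.10.9 and Python 3.11.15. Expression was not analysed here.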

Additional observations from a re-analysis of the deposited data

How the results depend on the processing

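With 3 libraries against 3 no exact permutation test can go below p = 0.1, so no test could pass 0.05, and the calls describe these libraries. Among the strongest 20000 peaks of each list there were 2 PROLIF-only, 1 DIFF-only and 6 shared regions in all 6 libraries, of which 2 ranked higher in DIFF and 1 in PROLIF. With a peak required to cover at least 50% of a region, there were 1 DIFF-only and 25 shared regions, 3 higher in DIFF and 2 higher in PROLIF. In the gene bodies alone 3 regions were DIFF-only. The study describes paired RNA-seq and ATAC-seq, with accessibility profiled in the same cultures in both states. No source ties PROLIF and DIFF libraries of the same number to one culture. Rank deviations correlated at 0.0123 to 0.153 between same numbers and −0.112 to 0.0614 between others, so the numbers were not taken as pairs. With a replicate block even so (a change in at least 2 of 3 same-numbered pairs and the opposite in none), 14 regions were PROLIF-only and 12 DIFF-only, and 8 shared regions ranked higher in DIFF and 8 in PROLIF in every pair. Leaving out 1 library at a time, the counts ranged from 4 to 9 PROLIF-only, 4 to 9 DIFF-only, 51 to 55 shared, 6 to 18 higher in DIFF and 6 to 11 higher in PROLIF.

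The difference in peak number over the 6 windows was 3.67 (DIFF minus PROLIF). It turned to −3.67 with lists of equal length, −1 among the strongest 20000 peaks, −1 in the gene bodies alone and −0.642 per 10000 peaks, and ranged from −1 to 9.50 with 1 library left out. It was −1 without PROLIF replicate 4 and −0.833 without DIFF replicate 4. The difference in covered length was 1.17 kb, −1.06 kb among the strongest 20000 peaks, and −1.49 to 4.99 kb with 1 library left out (−1.49 without PROLIF replicate 4, −0.606 without DIFF replicate 4). By gene, *Sox4* peak numbers turned to −0.667 in the gene body alone, −0.0353 per 10000 peaks, −1 without PROLIF replicate 4 and −0.667 without DIFF replicate 4. *Sox12* turned to −2 among the strongest 20000 peaks, *Sox6* to −0.333 and *Sox13* to −0.667 with lists of equal length, and *Sox13* to −0.00681 per 10000 peaks. The *Sox12* promoter difference was −0.449 and ranged from −2.26 to 1.46 with 1 library left out, turning to 0.488 without PROLIF replicate 1 and 1.46 without DIFF replicate 1, and that of *Sox6* to 0.581 when ranked by fold enrichment. The promoter differences of *Sox4*, *Sox5*, *Sox11* and *Sox13* each kept their sign under every alternative run for that gene. That of *Sox11* was 7.11 to 8.45 points with 1 library left out. The causes were not tested. Counts per 10000 peaks, ranks of shared regions by fold and the use of every line of a list were added after the data were seen.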

Other observations

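Of the 17 regions found in a single library, 5 came from DIFF replicate 4, 4 from PROLIF replicate 1, 3 from PROLIF replicate 2, 2 each from DIFF replicates 1 and 2 and 1 from PROLIF replicate 4. Their median width was 116 bp and their median percentile 12.8, against 124 bp and 10.7 over all single-library regions of the series.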
